A study of Mus musculus with 12 samples.

Results

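The genes described are 10 members of the unfolded protein response (UPR) and the integrated stress response (ISR), namely Hspa5, Herpud1, Xbp1, Atf6, Atf4, Ddit3, Trib3, Chac1, Asns and Sesn2. They were chosen by symbol from the 43280 genes of a poly(A) RNA-seq table of mouse bone marrow-derived macrophages (BMDM), and each symbol matched 1 row of that table. All cells came from mice on the C57BL6 background and were grown with the growth factor M-CSF. They were either wild type (wt) or Treml4-/-, and were given PBS as vehicle (M0) or 100 ng/mL of lipopolysaccharide (LPS), a bacterial product that activates macrophages through Toll-like receptor 4, for 8 h (M1-8 h) or 12 h (M1-12 h). Each of the 6 conditions had 2 biological replicates, giving 12 libraries. The study asked how the myeloid receptor TREML4 affects inflammatory macrophages, and the questions here are how the stress genes moved with LPS and whether they differed between genotypes. The mice themselves were Treml4-/-, so the gene was missing while the macrophages differentiated as well. The labels do not say whether the replicates were separate mice, so p-values measure the spread between these cultures. Sample names carry the same replicate through the 3 times within a genotype, without saying that its cultures came from 1 mouse, and tie no wt replicate to a Treml4-/- one.

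Unfolded proteins in the endoplasmic reticulum (ER) are sensed by the transmembrane proteins ATF6, IRE1 (gene Ern1) and PERK (gene Eif2ak3). ATF6 is cut to release a transcription factor, IRE1 splices Xbp1 mRNA so that an active factor is made, and PERK phosphorylates the translation factor eIF2 alpha. The kinases GCN2, PKR and HRI phosphorylate the same site on other stresses, which lowers translation in general while favouring that of ATF4, and ATF4 with its partners induces genes such as Ddit3, Trib3, Chac1, Asns and Sesn2. Gene-level RNA values do not show eIF2 alpha phosphorylation, ATF6 cleavage or the 2 splice forms of Xbp1.

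The libraries held 48008751 to 58500792 counted reads. Levels are given as CPM, where 1 CPM is 1 read in 1000000 counted reads, and all 10 members passed the filter of at least 1 CPM in at least 2 libraries, as did 12086 genes in all. Treml4 had 198 to 663 reads in the 6 wt libraries and 0 reads in the 6 Treml4-/- libraries, and a count of 0 allows up to 3 reads. All 8 macrophage markers were above 20 CPM in every library. Their sum at M0 was 23247 to 27907 CPM in wt and 20712 to 20948 CPM in Treml4-/-. At M1-8 h it was 12017 to 13416 CPM in wt and 10295 to 11030 CPM in Treml4-/-, again without overlap. At M1-12 h it was 10391 to 11185 CPM in wt and 9996 to 10395 CPM in Treml4-/-, where the genotypes just overlapped. Single macrophage markers went both ways, by means over both genotypes from M0 to M1-8 h. Lyz2 went from 12236 to 4949 CPM and Csf1r from 6047 to 1162 CPM, and Cd68 and Adgre1 were lower too. Fcgr1 went from 63.0 to 1193 CPM and Mertk from 33.3 to 275 CPM, and Itgam and Cd14 were higher too. Markers of T cells other than Cd4, of B cells, of mast cells and of erythroid cells were at or near 0. The 6 neutrophil markers summed to 22.2 to 61.8 CPM in wt M0 and 67.5 to 71.3 CPM in Treml4-/- M0. Over both genotypes they summed to 19.2 to 29.1 CPM at M1-8 h and 6.73 to 7.00 CPM at M1-12 h. The 4 dendritic cell markers reached at most 7.69 CPM, nearly all from Xcr1. The 4 stromal markers summed to at most 2.39 CPM. The 6 LPS response genes, Nos2 among them, summed to 44.9 to 62.5 CPM at M0 and 18804 to 24328 CPM after LPS. At each LPS time their sum was higher in both wt libraries than in both Treml4-/- libraries. The part of these shifts with LPS and of these gaps between genotypes in the results was not tested. In bulk libraries fewer cells of a type and less RNA per cell cannot be told apart.

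A gene was called when the Benjamini-Hochberg adjusted p of limma over all genes was under 0.05 and the fold change was at least 1.4, and log2 fold changes are on the log2(CPM + 1) scale. The median gene lay at a log2 fold change of -0.72 at M1-8 h and -0.76 at M1-12 h against M0, but at -0.06 at M1-12 h against M1-8 h. Scaling by the median of ratios, which centres each library on its typical gene instead of its read total, brought these medians to -0.04, -0.04 and -0.02. Changes against M0 are therefore given under both scalings, while the step from 8 to 12 h hardly depended on the choice. Under CPM 22.3% of the genes called at M1-8 h against M0 were higher, and under the median of ratios 49.8% were. At M1-12 h against M0 these shares were 21.2% and 50.1%. The 50 highest genes took 21.9 to 24.1% of the reads at M0, 24.5 to 25.3% at M1-8 h and 27.9 to 28.8% at M1-12 h.

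Promoter letters are shown because members of one pathway moved in different directions, and the elements known for ATF6 and XBP1 or for ATF4 and its partners can be looked for in the 250 bases before each RefSeq start (GRCm38.p6), which were given for 9 of the 10 members, all but Atf6. Both strands were searched for the ER stress response element (ERSE), CCAAT and CCACG with 9 bases between them, for ERSE-II, ATTGG and CCACG with 1 base between them, for the C/EBP-ATF response element TGATGNAA (CARE) and for the core TGACGTG of the UPR element. Among all 32851 promoters, 0.113% held the ERSE, 0.0304% ERSE-II, 3.45% the CARE and 1.65% the UPR element core. Of the members, 4 held a match, and no matches overlapped. Capitals in the following stretches mark the matches, read 5′ to 3′ on the strand of the gene. Bases that the GENCODE M21 annotation already places in the transcript are left out, except for 30 bases around a match.
Hspa5, UPR element core, chr2:34771840-34771969, + strand: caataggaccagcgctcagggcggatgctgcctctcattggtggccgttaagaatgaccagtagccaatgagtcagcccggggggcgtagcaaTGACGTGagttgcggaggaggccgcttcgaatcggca
Hspa5, ERSE, chr2:34772019-34772048, + strand: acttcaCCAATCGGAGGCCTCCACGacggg
Herpud1, CARE on the other strand and then ERSE-II, chr8:94386179-94386428, + strand: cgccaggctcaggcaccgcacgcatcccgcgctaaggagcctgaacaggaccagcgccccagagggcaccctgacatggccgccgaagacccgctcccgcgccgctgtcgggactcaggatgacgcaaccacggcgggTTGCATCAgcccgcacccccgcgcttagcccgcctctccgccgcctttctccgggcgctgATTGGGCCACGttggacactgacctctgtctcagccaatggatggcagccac
Chac1, CARE on the other strand, chr2:119350992-119351228, + strand: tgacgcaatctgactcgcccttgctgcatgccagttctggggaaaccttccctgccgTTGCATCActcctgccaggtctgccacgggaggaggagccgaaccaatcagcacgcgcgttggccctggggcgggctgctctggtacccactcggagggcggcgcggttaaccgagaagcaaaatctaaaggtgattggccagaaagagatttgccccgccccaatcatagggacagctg
Asns, CARE, chr6:7693214-7693243, - strand: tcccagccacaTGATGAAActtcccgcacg
The windows of Xbp1, Atf4, Ddit3, Trib3 and Sesn2 held none of these letters, which says nothing of elements elsewhere in those genes. A match of letters is a description and not a site of binding.

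After 8 h of LPS the members spread to both sides of the typical gene, and between 8 and 12 h Atf4 and 4 of the genes known as its targets rose together while Asns fell. Over M1-8 h against M0, 9 of the 10 members were called in CPM, 1 higher and 8 lower, where 76.9% of all genes were called, 17.1% higher and 59.8% lower. The members' median log2 fold change was -0.78, close to the -0.72 of all genes. Under the median of ratios only 3 members were called, Hspa5 and Ddit3 higher and Sesn2 lower, where 62.3% of all genes were called. Over M1-12 h against M0, 9 of 10 were called in CPM, 5 higher and 4 lower, against 76.5% of all genes, 16.3% higher and 60.3% lower, and 9 under the median of ratios, 6 higher and 3 lower, against 65.1%. The members' median was 0.48 in CPM beside -0.76 for all genes, and 1.21 under the median of ratios beside -0.04. Over M1-12 h against M1-8 h, 7 of 10 were called under both scalings, 5 higher and 2 lower, where 32.1% of all genes were called in CPM, 13.5% higher and 18.7% lower, and 32.5% under the median of ratios. The members' median was 0.57 beside -0.06 for all genes.

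**Figure D1:**
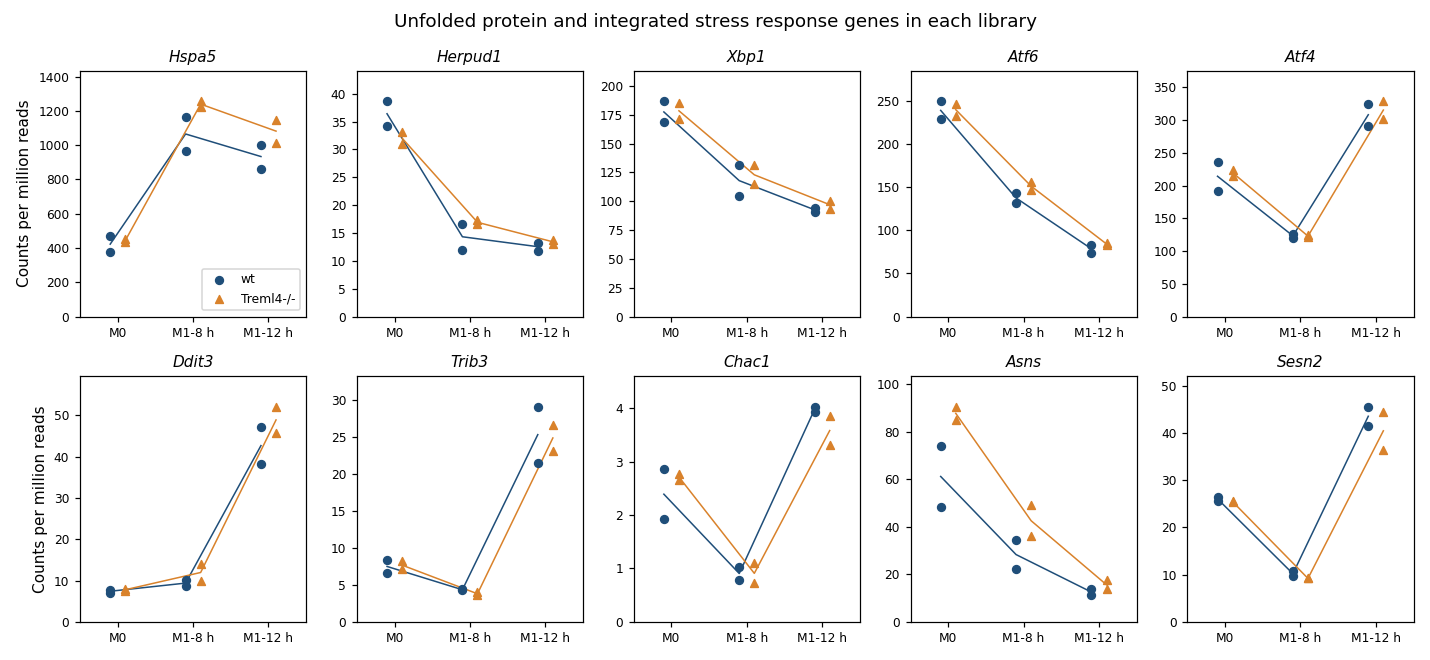
CPM (linear axes from 0) of each member in the 12 libraries at M0, M1-8 h and M1-12 h. Circles are wt and triangles Treml4-/- libraries, and lines join the means of 2 replicates. In CPM, Atf4, Trib3, Chac1 and Sesn2 dip at 8 h and are highest at 12 h. Ddit3 is highest at 12 h, Hspa5 more than doubles by 8 h, and Herpud1, Xbp1, Atf6 and Asns are lower after LPS. Under the median of ratios Sesn2 was the only member called lower at 8 h, and Xbp1 and Atf6 turned direction there.

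Hspa5 encodes BiP, the main HSP70 chaperone of the ER lumen and the standard marker of the UPR. It was at 469 and 376 CPM in wt M0 and 434 and 452 CPM in Treml4-/- M0. At M1-8 h it was at 1162 and 968 CPM in wt and 1254 and 1224 CPM in Treml4-/-, and at M1-12 h at 1003 and 863 CPM in wt and 1148 and 1015 CPM in Treml4-/-. Every LPS library was above every M0 library, and the libraries of 8 and 12 h overlapped. The log2 fold change was 1.41 ± 0.091 (SE, n = 4 libraries per time) at M1-8 h (adjusted p = 2.9e-08) and 1.21 at M1-12 h (adjusted p = 1.0e-07) against M0, and 2.21 and 2.06 under the median of ratios. The step between 8 and 12 h, -0.19 (adjusted p = 0.0865), did not pass. Hspa5 was the only member called higher at 8 h under CPM, while the median of ratios called Ddit3 higher as well. Whether the ERSE printed above has a part in the rise of Hspa5 was not tested.

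Herpud1 encodes an ER membrane protein that assists ER-associated degradation, and its promoter window carries both ERSE-II and the CARE. It was at 38.6 and 34.2 CPM in wt M0 and 33.1 and 30.9 CPM in Treml4-/- M0. After 8 h of LPS it was at 16.7 and 12.0 CPM in wt and 16.5 and 17.3 CPM in Treml4-/-, and at M1-12 h at 13.2 and 11.8 CPM in wt and 13.8 and 13.1 CPM in Treml4-/-. All 8 LPS libraries were below all 4 M0 libraries. Its log2 fold change was -1.09 ± 0.099 (SE) at M1-8 h (adjusted p = 6.5e-07) and -1.33 at M1-12 h (adjusted p = 1.0e-07) against M0, whereas the median of ratios gave -0.32, not called, and -0.52, called. The step from 8 to 12 h was -0.24 (adjusted p = 0.058), not called. Herpud1 and Hspa5, both textbook UPR targets, thus moved to opposite sides of the median of all genes, and their ratio within a library needs no scaling between libraries. Hspa5 had 11.0 to 14.6 reads for each read of Herpud1 at M0, 69.6 to 81.0 at M1-8 h and 72.8 to 83.4 at M1-12 h, a ratio chosen after the values were seen.

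Atf6, the ER membrane sensor that becomes a transcription factor on cleavage, fell at each step in CPM, although not at 8 h under the median of ratios. It was at 249 and 229 CPM in wt M0 and 233 and 247 CPM in Treml4-/- M0. By M1-8 h it was at 143 and 132 CPM in wt and 156 and 146 CPM in Treml4-/-, and at M1-12 h at 83.1 and 74.0 CPM in wt and 85.0 and 83.4 CPM in Treml4-/-. The 3 times did not overlap. At M1-8 h against M0 the log2 fold change was -0.73 ± 0.062 (SE, adjusted p = 3.8e-07), close to the median of all genes, and the direction turned to 0.07 (not called) under the median of ratios. Between 8 and 12 h it fell by 0.82 on the log2 scale (adjusted p = 1.1e-06), and under the median of ratios by 0.77. At M1-12 h against M0 it was lower by both scalings, at -1.55 and -0.70.

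Xbp1 encodes the transcription factor that IRE1 activates by splicing, and the reads of both splice forms are summed. It was at 187 and 168 CPM in wt M0 and 186 and 171 CPM in Treml4-/- M0. The M1-8 h libraries gave 131 and 104 CPM in wt and 131 and 115 CPM in Treml4-/-, and at M1-12 h at 94.4 and 90.8 CPM in wt and 101 and 93.5 CPM in Treml4-/-. Each LPS library was below each M0 library in CPM. The log2 fold change against M0 was -0.57 ± 0.082 (SE, adjusted p = 4.2e-05) at M1-8 h and -0.90 (adjusted p = 6.5e-07) at M1-12 h, but 0.23 and -0.06 under the median of ratios, neither called. The step from 8 to 12 h was -0.34 (adjusted p = 0.00442), under 1.4-fold. Without replicate 2 of wt M1-8 h the 8 h value was -0.48 and no longer called.

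Atf4, the transcription factor at the centre of the ISR, fell below its M0 level in CPM at 8 h and stood above it at 12 h. It was at 236 and 192 CPM in wt M0 and 215 and 224 CPM in Treml4-/- M0. At M1-8 h it was at 126 and 120.3 CPM in wt and 125 and 121 CPM in Treml4-/-, and at M1-12 h at 325 and 291 CPM in wt and 302 and 328 CPM in Treml4-/-. The 3 times did not overlap in CPM. From 8 to 12 h Atf4 rose by 1.33 ± 0.073 (SE) in log2 (adjusted p = 1.2e-07), and by 1.38 under the median of ratios. Against M0 the value at 8 h was -0.81 (adjusted p = 6.1e-07) in CPM but -0.01 under the median of ratios, and at 12 h it was 0.52 (adjusted p = 3.0e-05) in CPM and 1.37 under the median of ratios. The 12 h call against M0 was lost at 0.45 without replicate 2 of wt M0 and at 0.48 without replicate 1 of wt M1-12 h, both just under 1.4-fold.

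Ddit3 encodes CHOP, a C/EBP-family factor induced by ATF4 that is known for promoting cell death under lasting stress. It was at 7.73 and 7.06 CPM in wt M0 and 7.54 and 7.99 CPM in Treml4-/- M0. After 8 h of LPS it was at 10.2 and 8.56 CPM in wt and 9.86 and 14.0 CPM in Treml4-/-, and at M1-12 h at 47.1 and 38.3 CPM in wt and 45.7 and 52.1 CPM in Treml4-/-. All 12 h libraries were above all others, with the lowest of them well clear of the highest 8 h library. The rise from 8 to 12 h was 2.02 ± 0.12 (SE) in log2 (adjusted p = 1.5e-07), and against M0 the 12 h value was 2.44 (adjusted p = 1.9e-09), or 3.20 under the median of ratios. At M1-8 h against M0 the value was 0.42 (adjusted p = 0.00455), under 1.4-fold, while the median of ratios called it at 1.12, and CPM called it at 0.54 without replicate 1 of Treml4-/- M1-8 h. In the annotation 68 of the 1713 exonic bases of Ddit3 (3.97%) are shared with Mars on the other strand, and the sources used here do not state whether counting used strand. Mars, at 13.4 to 96.0 CPM, was lower than at M0 at both LPS times. Between 8 and 12 h, when Ddit3 rose, Mars was not called, at 0.06 (adjusted p = 0.627). The part of the shared bases in the Ddit3 values was not tested. The annotation also holds a second, shorter model named Ddit3 on the same strand, which has 0 exonic bases outside the one used here, and the table gives a single Ddit3 value.

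Trib3 encodes a pseudokinase that is induced by ATF4 and CHOP and restrains ATF4 in turn. Its levels were 8.41 and 6.59 CPM in wt M0 and 8.19 and 7.16 CPM in Treml4-/- M0. At M1-8 h they were 4.42 and 4.27 CPM in wt and 3.62 and 3.97 CPM in Treml4-/-, and at M1-12 h 29.1 and 21.6 CPM in wt and 23.2 and 26.6 CPM in Treml4-/-. The 8 h libraries were the lowest and the 12 h libraries the highest, with no overlap. Its rise from 8 to 12 h, 2.36 ± 0.11 (SE) in log2 (adjusted p = 5.0e-08), was the largest among the members. Against M0 it was -0.76 at 8 h (adjusted p = 4.9e-05) but -0.08 under the median of ratios, and 1.60 at 12 h (adjusted p = 5.8e-08), or 2.36 under the median of ratios.

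Sesn2 encodes Sestrin 2, a leucine sensor that inhibits mTORC1. It stood at 26.4 and 25.7 CPM in wt M0 and 25.6 and 25.3 CPM in Treml4-/- M0. At M1-8 h it stood at 9.61 and 10.8 CPM in wt and 9.18 and 9.20 CPM in Treml4-/-, and at M1-12 h at 45.6 and 41.5 CPM in wt and 36.5 and 44.5 CPM in Treml4-/-. Here too the 8 h libraries were below all others and the 12 h libraries above. It was the only member called lower at 8 h under both scalings, at -1.33 ± 0.079 (SE, adjusted p = 1.4e-08) and -0.57, and then rose by 2.01 from 8 to 12 h (adjusted p = 1.8e-08). At M1-12 h it was above M0, at 0.68 (adjusted p = 5.6e-06) in CPM and 1.50 under the median of ratios.

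Chac1, an enzyme that degrades glutathione and an ATF4 target in the UPR, had the lowest level of the members. It was at 2.85 and 1.93 CPM in wt M0 and 2.77 and 2.66 CPM in Treml4-/- M0. By M1-8 h it was at 1.03 and 0.780 CPM in wt and 0.718 and 1.10 CPM in Treml4-/-, and at M1-12 h at 3.93 and 4.03 CPM in wt and 3.31 and 3.85 CPM in Treml4-/-. The 12 h libraries were the highest and the 8 h libraries the lowest, with no overlap. Its rise between 8 and 12 h was 1.33 ± 0.11 (SE) in log2 (adjusted p = 1.7e-06), a value that the pseudocount of 1 CPM shrinks for so low a gene. At M1-12 h against M0 the value was 0.43 (adjusted p = 0.00249), just under 1.4-fold, and it was called at 1.04 under the median of ratios and at 0.53 in CPM without replicate 1 of wt M0. At M1-8 h against M0 it was -0.89 (adjusted p = 8.2e-06) in CPM and -0.39, not called, under the median of ratios.

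Asns encodes asparagine synthetase, an ATF4 target of amino acid shortage whose promoter carries the CARE nearest to a start among the members. It was at 74.0 and 48.4 CPM in wt M0 and 85.0 and 90.6 CPM in Treml4-/- M0. The M1-8 h libraries gave 34.4 and 22.2 CPM in wt and 49.0 and 36.1 CPM in Treml4-/-, and at M1-12 h at 13.8 and 11.2 CPM in wt and 13.6 and 17.6 CPM in Treml4-/-. The 12 h libraries were below all others, and the highest 8 h library was just above the lowest M0 library. Among the members it alone of the ATF4 targets fell after 8 h, and the step from 8 to 12 h was -1.24 ± 0.17 (SE, adjusted p = 8.6e-05) in log2, and -1.20 under the median of ratios. Against M0 it was -1.06 at 8 h (adjusted p = 9.0e-05), or -0.28 and not called under the median of ratios, and -2.30 at 12 h (adjusted p = 9.2e-08), or -1.48. Other genes known as ATF4 targets, named after their values were seen, moved both ways between 8 and 12 h. Phgdh at -1.48, Shmt2 at -1.41, Slc1a5 at -0.85 and Psat1 at -0.71 fell, whereas Slc38a2 at 1.15 and Pck2 at 0.81 rose. These are a selection from the wider list below, in which Mthfd1l and Mthfd2 also had higher medians at 12 h. Mthfd1l went from 13.3 to 51.5 CPM and Mthfd2 from 33.7 to 66.0 CPM. Of the 12 tested genes of amino acid synthesis and one-carbon metabolism in that list, 4 rose over this step and 3 fell. Of its 9 amino acid transporters 2 rose and 4 fell, and of its 12 aminoacyl tRNA synthetases 3 rose and 4 fell. Of all genes 13.5% were called higher over this step and 18.7% lower. The ratio of Sesn2 to Asns reads, chosen after the values were seen, was 0.280 to 0.530 at M0, 0.187 to 0.485 at M1-8 h and 2.53 to 3.70 at M1-12 h.

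**Figure D2:**
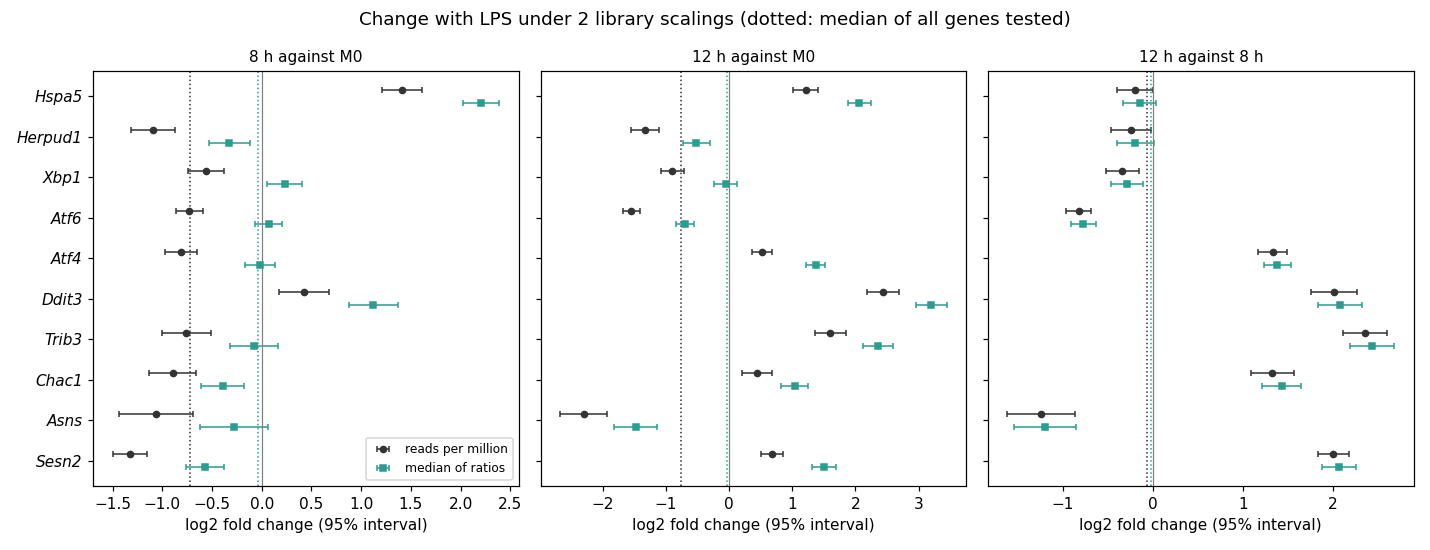
Log2 fold changes of the members (points, with 95% intervals of limma) at 8 h against M0, 12 h against M0 and 12 h against 8 h of LPS, both genotypes together. Circles are CPM, squares the median of ratios, and dotted lines the median of all 12086 genes in the same colours. Against M0 the scalings differ by about the shift of the median, whereas at 12 h against 8 h they nearly coincide, with Atf4, Ddit3, Trib3, Chac1 and Sesn2 to the right and Atf6 and Asns to the left.

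Each genotype gave the step from 8 to 12 h separately. In wt, 7 of 10 members were called, 5 higher and 2 lower, where 31.6% of all genes were called, and in Treml4-/- 7 of 10, 5 higher and 2 lower, where 32.3% were. The log2 fold change of Atf4 was 1.31 in wt and 1.35 in Treml4-/-, that of Ddit3 2.07 and 1.96, that of Trib3 2.29 and 2.43, that of Sesn2 1.99 and 2.02 and that of Asns -1.09 and -1.39.

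Levels of different genes are compared per kilobase of annotated exon. At M0 the order ran from Hspa5 at 102 ± 9.62 CPM per kb (SD, n = 4) and Atf4 at 92.0 ± 7.92, whose libraries overlapped, through Xbp1 at 54.8, Asns at 27.2, Atf6 at 25.9, Herpud1 at 14.7, Sesn2 at 7.41, Ddit3 at 4.42 and Trib3 at 3.57 to Chac1 at 1.56. Of the other neighbours only Asns and Atf6 overlapped. At M1-8 h Hspa5 stood at 272 ± 30.4 CPM per kb, far above Atf4 at 52.2 ± 1.21, and Ddit3 at 6.22 overlapped Herpud1 at 6.70. At M1-12 h Hspa5 was at 238 ± 27.6, Atf4 at 132 ± 7.60, Xbp1 at 29.2 ± 1.26 and Ddit3 at 26.7 ± 3.33 CPM per kb, the last pair overlapping as did Sesn2 with Trib3 and Herpud1 with Asns, and Asns had moved from the fourth place at M0 to the ninth, at 5.14 ± 0.954.

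Across the 12 libraries the log2(CPM + 1) values of some members ran together, which is a description over libraries that share 3 times and not a test. These values carry the CPM scaling, in which the median gene was lower after LPS, and r was not taken under the median of ratios. Pearson's r was 0.99 for Atf4 with Sesn2, 0.98 for Atf4 with Chac1 and 0.94 for Atf4 with Trib3, and 0.97 for Atf6 with Xbp1 and with Asns. The most opposed pairs were Atf6 with Ddit3 at -0.92 and Hspa5 with Herpud1 at -0.87. Among all genes tested, those most like Atf4 were Afg3l2 (r = 0.99) and Sesn2, those most like Ddit3 were Cd300lf and Ralgps1 (both 0.99), and those most like Trib3 were Slc9a3r1 and Eif4ebp1 (both 0.99). For Sesn2 they were Unc13d (0.99) and Slc37a4 (0.99), for Chac1 Tom1l2 (0.98) and Atf4, and for Asns Pcmt1 (0.99) and Phgdh (0.99), the enzyme of the first step of serine synthesis. For Hspa5 they were Il1f9 and Ugcg, for Herpud1 Bpnt1 and Gm11824, for Xbp1 Mrps25 and Gtf2h5, all at 0.99, and for Atf6 Swap70 at 0.997 and Ipo5 at 0.996.

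Genotype made no called difference to any member. At M0, M1-8 h and M1-12 h, 0 of 10 members were called by limma between wt and Treml4-/-, where 0.0993%, 0.091% and 0.132% of all genes were called, and voom on the recovered reads likewise called 0 at each time. With another test at the same thresholds, the study reported more genes differing between genotypes in M1 macrophages than were called here. Leaving out any 1 library still called 0 members, but it moved the shares over all genes. They went up to 1.82% at M0 without replicate 1 of wt M0, to 4.96% at M1-8 h without replicate 1 of Treml4-/- M1-8 h and to 0.654% at M1-12 h without replicate 1 of wt M1-12 h, and a smaller rise, to 0.174%, came at M1-8 h without replicate 1 of wt M1-8 h. They went down to 0.0579% at M0 without replicate 1 of Treml4-/- M0. At M1-12 h they went down to 0.0496% without replicate 2 of wt or of Treml4-/- M1-12 h, to 0.0579% without replicate 1 of Treml4-/- M1-12 h and to 0.0827% without either replicate of Treml4-/- M0. At an unadjusted p under 0.05 M0 had 1 member, M1-8 h had 1 and M1-12 h had 0, where 3.35%, 21% and 7.55% of all genes passed. That member was Asns both times, lower in wt by a log2 difference of -0.54 ± 0.24 (SE) at M0 (adjusted p = 1) and -0.59 ± 0.24 at M1-8 h (adjusted p = 0.21). Both wt libraries were below both Treml4-/- libraries at M0 and at M1-8 h, and the genotypes overlapped at M1-12 h, with a difference of -0.29. The 2 wt replicates of Asns were themselves far apart, at 74.0 and 48.4 CPM at M0.

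For the other 9 members the 95% intervals of wt against Treml4-/- reached from -0.48 to 0.49 at M0, from -0.66 to 0.51 at M1-8 h and from -0.56 to 0.46 at M1-12 h. On the log2(CPM + 1) scale an interval is narrower than in CPM for a gene as low as Chac1. For Asns the intervals ran down to -1.07, -1.12 and -0.82. The genotype by LPS interaction called 0 of 10 members at 8 h and 0 of 10 at 12 h, where 0.00827% of all genes were called at each (at most 0.0248% at 8 h, without replicate 2 of wt M0, 0.0165% without replicate 1 of wt M1-8 h, and at 12 h 0.273% without replicate 1 and 0.0248% without replicate 2 of wt M0), and at an unadjusted p under 0.05 there was 0 of 10 at both. The lowest adjusted p among the members was 0.733 at 8 h, for Herpud1, whose fall at 8 h differed by -0.42 ± 0.20 (SE) in log2 (the change in wt minus that in Treml4-/-), and 0.999 at 12 h.

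**Figure D3:**
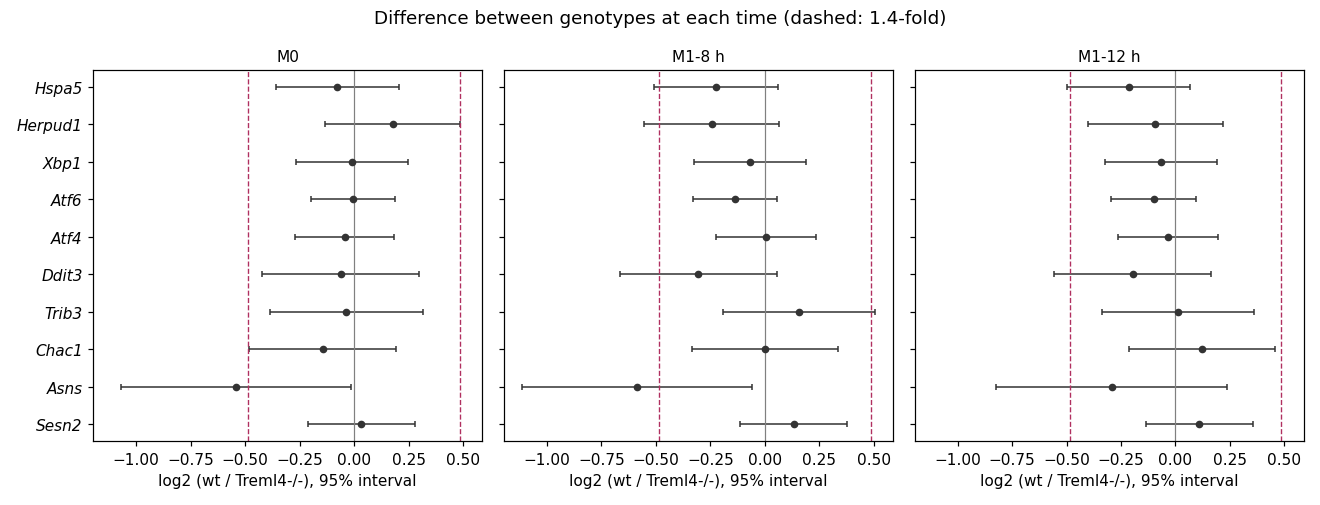
Log2 difference of wt against Treml4-/- for each member at the 3 times, with 95% intervals of limma (n = 2 per genotype and time). Dashed lines mark 1.4-fold. The intervals of all members but Asns at M0 and M1-8 h cross 0.

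A wider list of 122 genes of the same pathways, in 9 arms and without the members, was followed through the same contrasts, and 116 of them passed the filter. At M1-8 h against M0, 16 rose (13.8%) and 67 fell (57.8%) in CPM, where 17.1% of all genes were higher and 59.8% lower, so the list lay near the background. Its median log2 fold change was -0.62 beside -0.72 for all genes. Under the median of ratios 38 rose (32.8%) and 29 fell (25%), beside 31.1% and 31.3% of all genes. At M1-12 h against M0, 21 rose (18.1%) and 59 fell (50.9%) in CPM, beside 16.3% and 60.3%, and 50 rose (43.1%) and 31 fell (26.7%) under the median of ratios, beside 32.6% and 32.5%. The step from 8 to 12 h called 17 higher (14.7%) and 16 lower (13.8%), beside 13.5% and 18.7% of all genes, with a median of -0.01 beside -0.06, and the median of ratios gave 17 and 16 as well, beside 15.5% and 17%. Between genotypes limma called 0 of the 116 at each time and in each interaction. At an unadjusted p under 0.05 M0 had 3 of the 116, M1-8 h had 24 and M1-12 h had 11. Of all genes 3.35%, 21% and 7.55% passed at these times. The interactions at 8 and 12 h had 11 and 3 of the 116, where 6.67% and 3.82% of all genes passed.

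The counts of single arms are to be read beside the same shares, since 59.8% of all genes fell and 17.1% rose at M1-8 h in CPM. For the step from 8 to 12 h the shares in CPM were 18.7% lower and 13.5% higher. Genes given against M0 in CPM alone kept their direction and call at M1-8 h under the median of ratios, with other sizes. Of the 7 stress sensors and transducers, 1 rose and 6 fell at M1-8 h in CPM, and 1 rose and 5 fell under the median of ratios. Traf2, an adaptor of IRE1 and of TNF receptors, rose from a median of 27.8 CPM at M0 to 80.2 CPM at M1-8 h, by 1.49 ± 0.071 (SE) in log2. Eif2ak3, the gene of PERK, went from 43.3 to 5.43 CPM, a log2 fold change of -2.85, and Map3k5, the kinase ASK1 downstream of IRE1, fell from 28.5 to 4.82 CPM. From 8 to 12 h only Map3k5, at 0.62, and Ern1, at 0.68 and named after its values were seen, rose in this arm.

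Among the 13 genes of eIF2 alpha kinases, eIF2B and the phosphatase, 3 rose and 8 fell at M1-8 h in CPM, and 5 rose and 4 fell under the median of ratios. Eif2ak2, the interferon-inducible kinase PKR, rose from a median of 28.0 to 301 CPM, by 3.50 ± 0.13 (SE) in log2. Ppp1r15a, encoding GADD34, which brings the phosphatase to eIF2 alpha, rose from 40.6 to 213 CPM and stood at 144 CPM at M1-12 h. Eif2ak4, the amino acid sensor GCN2, fell from 27.8 to 10.2 CPM, at -1.43 in CPM and -0.67 under the median of ratios. At M1-12 h against M0 Eif2ak4 was at -1.19 and -0.38, the second not called. Eif2b3, a subunit of the exchange factor eIF2B, fell from 8.04 to 1.81 and then 0.571 CPM.

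The arm of bZIP partners and stress regulators had 10 tested genes, of which 5 rose and 5 fell at M1-8 h in CPM, and 5 rose and 3 fell under the median of ratios. Nupr1, a stress-induced chromatin protein, rose from a median of 5.25 to 123 CPM, by 4.32 ± 0.12 (SE) in log2, and Ddit4, an inhibitor of mTORC1, from 1.03 to 5.40 CPM. Sesn1, a relative of Sesn2 known as a p53 target, went from 69.1 to 1.11 CPM, a log2 fold change of -5.09, and did not come back at 12 h, at 1.33 CPM, while Sesn2 exceeded its M0 level. Atf5, another bZIP factor translated like ATF4, fell from 61.5 to 10.9 CPM. Where 13.5% of all genes were higher and 18.7% lower from 8 to 12 h, 4 genes of this arm rose and 0 fell. They were Eif4ebp1, a repressor of cap-dependent translation, at 1.63 ± 0.056 (SE), Atf3 at 0.83, Cebpg, a partner of ATF4, at 0.59 and Sesn3 at 0.55, named after their values were seen.

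The arms of amino acid supply moved in both directions. In amino acid synthesis and one-carbon metabolism 1 of 12 rose and 9 fell at M1-8 h in CPM, and 1 rose and 4 fell under the median of ratios. Psat1, of serine synthesis, rose from a median of 43.8 to 146 CPM and was at 88.2 CPM at 12 h, whereas Shmt2, the mitochondrial enzyme that turns serine into glycine, fell from 64.9 to 12.9 and 3.66 CPM, and Pck2 from 106 to 4.80 CPM. Between 8 and 12 h 4 rose and 3 fell, where 13.5% of all genes were higher and 18.7% lower. Mthfd1l, of mitochondrial formate production, was at 1.86 and Phgdh at -1.48, both named after their values were seen. Of the 9 amino acid transporters 2 rose and 7 fell at M1-8 h in CPM, and 2 rose and 4 fell under the median of ratios. The 2 that rose, Slc7a11 and Slc3a2, encode the subunits of the cystine-glutamate exchanger, and went from 26.6 to 209 and 282 CPM and from 309 to 574 and 736 CPM. Slc38a2, the neutral amino acid carrier SNAT2, fell from 170.2 to 24.9 CPM and then rose to 56.1 CPM, by 1.15 ± 0.10 (SE) in log2, while Slc1a5, a glutamine carrier, fell from 37.7 to 4.69 and 2.17 CPM. Of the 12 aminoacyl tRNA synthetases 1 rose and 10 fell at M1-8 h in CPM, and 2 rose and 8 fell under the median of ratios. Wars, the interferon-inducible tryptophan enzyme, rose from 59.2 to 260 CPM, while Iars fell from 105 to 14.5 CPM and Mars from 89.0 to 17.1 CPM.

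In the 3 arms of ER machinery the step from 8 to 12 h called 2 of 21 chaperones and folding enzymes, 0 of 17 genes of ER-associated degradation and 1 of 15 translocon and signal peptidase genes, where 32.1% of all genes were called. Of the 21 chaperones and folding enzymes 2 rose and 9 fell at M1-8 h in CPM, but 10 rose and 0 fell under the median of ratios. Ero1l, the oxidase that recharges protein disulfide isomerase, rose from a median of 38.8 to 71.5 and then 360 CPM, by 2.32 ± 0.11 (SE) in log2 between 8 and 12 h. The other chaperone that rose then was Creld2, at 0.87, named after its values were seen. Manf, a secreted stress factor, rose from 38.4 to 58.8 CPM, at 0.56 in CPM and 1.34 under the median of ratios. Txndc5 and Sil1 were at -1.04 and -1.02 in CPM at M1-8 h, neither called under the median of ratios. Of 17 genes of ER-associated degradation 0 rose and 6 fell at M1-8 h in CPM, against 7 and 0 under the median of ratios, and at 12 h against 8 h all lay within 1.4-fold. Ube2g2 was at -1.13 and Derl1 at -1.01 in CPM at M1-8 h, and -0.35 and -0.22, not called, under the median of ratios. Of 15 translocon and signal peptidase genes 1 rose and 7 fell in CPM, against 5 and 1 under the median of ratios. Ssr3, of the translocon-associated complex, rose from 119 to 231 CPM. Srprb, of the signal recognition particle receptor, fell from 28.0 to 11.0 CPM, at -1.25 in CPM and -0.49 under the median of ratios. Sec11c, of the signal peptidase, was at -1.09 in CPM and -0.30, not called, under the median of ratios.

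**Figure D4:**
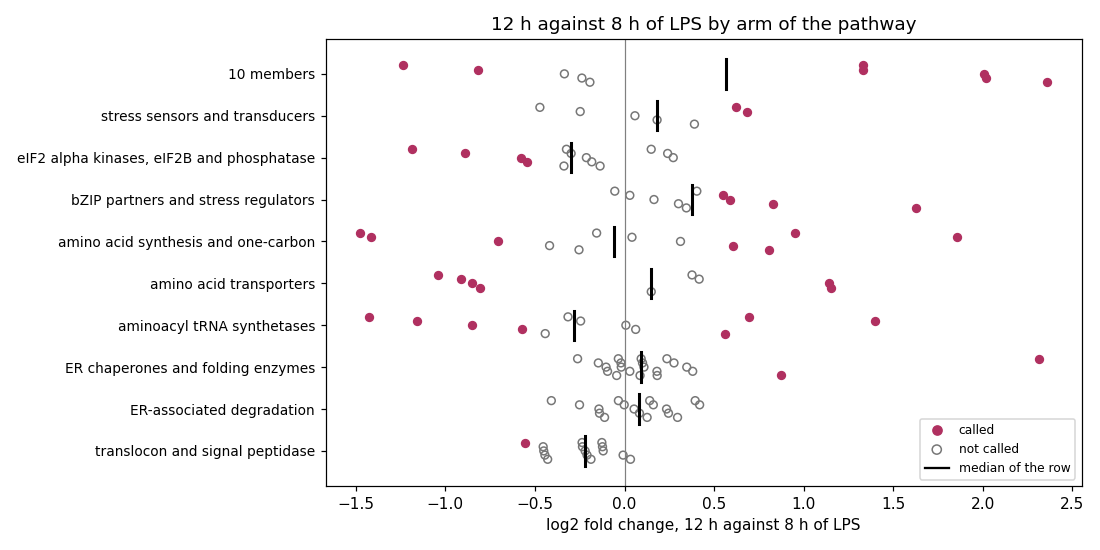
Log2 fold change (CPM) at 12 h against 8 h of LPS for the 10 members and for the 116 tested genes of the wider list, by arm. Filled points were called, open points were not, and bars are medians. The members spread from -1.24 (Asns) to 2.36 (Trib3). In the wider list 0 of 17 genes of ER-associated degradation and 2 of 21 chaperones were called, beside 32.1% of all genes. Of 12 genes of amino acid synthesis 4 rose and 3 fell, of 9 transporters 2 rose and 4 fell, and of 12 tRNA synthetases 3 rose and 4 fell.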

How the data were processed

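The libraries were strand-specific poly(A) libraries of BMDM, and replicates and conditions were taken from the sample labels. Per the labels and the study's methods, the authors aligned reads with STAR to mm10, counted genes with Subread, and deposited log2 CPM with a prior of 0.25 reads. The annotation and whether counting used strand were not given in the sources used here. Taking the prior off gave whole reads in 100% of the libraries (tolerance 0.02 reads), from which the deposited log2 values could be recomputed. CPM were read back, and log2(CPM + 1) was tested with limma 3.58.1 in R 4.3.3 (trend, 1 mean per condition, 12 libraries, genes with at least 1 CPM in 2 libraries, Benjamini-Hochberg adjustment over 12086 genes, adjusted p under 0.05 and at least 1.4-fold). Genotype contrasts are wt minus Treml4-/-, and LPS contrasts average both genotypes. The plan had named CPM as the deposited unit.

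With 48008751 to 58500792 reads, 1 read was worth 0.0171 to 0.0208 CPM. Replicates differed by more than sampling noise (chi-square per degree of freedom 11.3 or more) and were kept apart. Exon lengths and positions came from GENCODE M21 and promoters from RefSeq, both GRCm38. The members, the wider list and the markers were chosen with earlier results of these data known. Named were all members, up to 2 genes per arm and direction with the largest called change at M1-8 h against M0, the 2 genes most like each member, and Treml4. The test was checked on simulated data in which few genes changed, so that check does not bear on the scaling of changes against M0. Alternatives were another pseudocount, the deposited log2 scale, other filters, median-of-ratios scaling, voom, no minimum fold, replicate blocks, fewer libraries in the fit and leaving out each library. Other steps used pandas 2.3.3 and numpy 2.4.6 in Python 3.11.15.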

Additional observations from a re-analysis of the deposited data

How the results depend on the processing

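The count of called members at M1-8 h against M0 went from 9 to 3 under median-of-ratios scaling, where Xbp1 turned to 0.23 and Atf6 to 0.068 on the log2 scale, neither called. This follows from the median of all genes, which the scaling moved by 0.69 at M1-8 h and 0.72 at M1-12 h against M0, and by 0.04 at M1-12 h against M1-8 h. Every other count of called members stayed within 1.5 times of its value under the alternatives run. Leaving out each library in turn gave 8 to 10 members at M1-8 h and 8 to 10 at M1-12 h against M0, 7 at M1-12 h against M1-8 h, and 0 for each genotype contrast and interaction. Chac1 at M1-12 h against M0, 0.43 and not called, was called at 0.56 with a pseudocount of 0.1, at 0.58 on the deposited log2 scale and at 0.58 with voom. The 5 CPM filter leaves Chac1 untested. The replicate block, over all libraries or within each genotype, gave the same counts, 9, 9 and 7 for the LPS contrasts, and 0 for the genotype contrasts and interactions it could give. Same-numbered replicates did not deviate together throughout. Their deviations correlated at -0.26, 0.30 and 0.06 between genotypes at M0, M1-8 h and M1-12 h. Within wt they correlated at 0.12 (M0 with M1-8 h), 0.062 (M0 with M1-12 h) and 0.41 (M1-8 h with M1-12 h), and within Treml4-/- at 0.46, -0.20 and -0.27 for the same pairs, so the names tie times within a genotype but the values do not show a pairing in all of them.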
